A study of Mus musculus with 17 samples.

Results

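The immunoglobulin light-chain variable (V) segments are the genes named Igkv (kappa) and Iglv (lambda). Rows of the expression table with these names were selected on their own values, by a level of at least 1 TPM (transcripts per 1000000) in at least 3 of the 17 mice. The rule kept 81 segments, 78 Igkv and 3 Iglv, of 163 rows listed (160 Igkv and 3 Iglv) and of 13305 genes that passed the same filter. Of the 82 rows left out, 41 are listed at 0 in every mouse, 59 are annotated as pseudogenes and 23 as functional. Among the 81 segments kept, 80 are annotated as functional and Igkv4-77 as a pseudogene. Because the rule used the levels of all 17 mice, LLC mice included, a segment could pass through the group where it was high. Without the LLC mice 76 of the 81 segments would still pass, and 5 would not. These 5 are Igkv4-58, Igkv4-77, Igkv7-33, Igkv9-123 and Igkv11-125. Their values in any comparison with LLC mice are a description, since their selection rested on those mice.

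The RNA came from diaphragm muscle of male C57BL/6J mice, 4 months of age. Control mice (n = 5) had no tumor and were given mock injections, a buffered saline that carried albumin. Control + rFibcd1 mice (n = 5) had no tumor and received recombinant Fibcd1 protein into the peritoneal cavity. LLC mice (n = 3) bore tumors from Lewis lung carcinoma cells injected under the skin and received the mock injections, and LLC + rFibcd1 mice (n = 4) bore the same tumors and received the recombinant protein. The comparisons ask which transcripts of the muscle differ in tumor-bearing mice, and which differ with rFibcd1. The 8 skeletal muscle markers examined summed to between 44059 and 56330 TPM in a mouse, so the defining transcripts of the labelled tissue were abundant.

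A light chain gene is assembled in each developing B cell, when the RAG recombinase joins a V segment to a short J segment in front of the constant exon. The descendants of that cell, including the plasma cells that secrete antibody, as a rule keep the chosen segment, so light-chain V transcripts in a tissue reflect which B-lineage clones are present. In the mouse most light chains are kappa, the kappa locus holds many V segments in either orientation, and the lambda locus holds very few. The V segment encodes the framework and the first complementarity-determining loops of the antigen-binding site, and its 3′ end contributes the start of the third loop.

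The 3′ ends below show how alike the germline segments are at the point where they join J, which bears on the level of any single segment. They are the 12 segments that are the most abundant in some mouse, with Igkv3-5, the closest relative of Igkv3-10, and with Iglv1 and Iglv2. Each runs 5′ to 3′ on the coding strand from 30 bases before the codon of the conserved second cysteine, in capitals, to the last base of the germline segment, as read from the GENCODE vM21 transcripts (build GRCm38).
Igkv4-55: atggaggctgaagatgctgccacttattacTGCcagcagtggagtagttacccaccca
Igkv4-57: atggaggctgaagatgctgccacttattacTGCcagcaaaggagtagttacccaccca
Igkv4-59: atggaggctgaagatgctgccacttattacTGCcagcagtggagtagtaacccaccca
Igkv4-80: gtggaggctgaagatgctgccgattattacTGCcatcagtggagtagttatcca
Igkv3-2: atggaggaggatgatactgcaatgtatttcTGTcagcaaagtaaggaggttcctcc
Igkv3-10: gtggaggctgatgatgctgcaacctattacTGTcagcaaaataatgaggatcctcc
Igkv3-5: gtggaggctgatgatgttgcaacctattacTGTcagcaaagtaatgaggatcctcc
Igkv5-39: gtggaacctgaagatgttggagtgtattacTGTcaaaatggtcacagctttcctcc
Igkv15-103: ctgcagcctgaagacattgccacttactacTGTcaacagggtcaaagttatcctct
Igkv1-117: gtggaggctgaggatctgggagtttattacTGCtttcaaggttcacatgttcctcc
Igkv10-96: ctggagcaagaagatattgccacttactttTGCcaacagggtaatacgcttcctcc
Igkv8-24: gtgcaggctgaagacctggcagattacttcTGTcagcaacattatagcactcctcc
Igkv14-126: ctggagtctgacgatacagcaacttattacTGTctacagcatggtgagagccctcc
Iglv1: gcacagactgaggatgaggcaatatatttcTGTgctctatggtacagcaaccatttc
Iglv2: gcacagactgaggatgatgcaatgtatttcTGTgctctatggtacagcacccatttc

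Of the 80 segments kept whose end could be read, 55 have 23 bases after the cysteine codon, 53 use TGT and 27 use TGC. Igkv3-10 and Igkv3-5 differ at 2 positions of the stretch shown, Iglv1 and Iglv2 at 3, and Igkv4-55 and Igkv4-59 at 1. The ends of 10 segments are shared exactly with another segment kept, in 5 pairs, among them Igkv4-59 and Igkv4-68. Over the whole transcript, 41 of the 81 segments have another listed segment at 95% identity or more, 14 at 97% or more and 0 at 99% or more. In 43 of them every run of 100 bases is unique among the listed segments. The lowest share of unique runs is 44.2%, in Igkv6-20, whose nearest relative is Igkv6-29. Values of single segments are therefore uncertain where reads could have been divided among relatives or carried somatic changes, and sums over families are less exposed to this.

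The kappa segments kept lie on chromosome 6 between 67555497 and 70704177 (GRCm38), from 0.0184 Mb (Igkv3-1) to 3.17 Mb (Igkv2-137) from Igkj1, the first kappa J segment. On the strand of the J segments there were 30, and 48 were on the opposite strand. The 3 lambda segments lie on chromosome 16 between 19085017 and 19260859. Mean levels over the 17 mice ran from 0.602 TPM (Igkv4-69) to 261.2 TPM (Igkv4-55), with a median of 15.8 TPM. The most abundant, Igkv4-55, lies at chr6:69607275-69607828 on the minus strand, and Igkv3-2 at chr6:70698449-70699067 on the plus strand. Igkv19-93 lies at chr6:68736297-68736780 and Igkv4-58 at chr6:69500254-69500786, both on the minus strand, and Iglv1 at chr16:19085017-19085500 on the minus strand. The annotation lists each of these as a functional V gene. Just inside the rule were Igkv4-77, with a third-highest level of 1.32 TPM, and Igkv4-69 with 1.56 TPM. Just outside were Igkv4-90, with a third-highest level of 0.939 TPM, and Igkv14-130 with 0.905 TPM. No segment kept reached 1 TPM in all mice. Igkv14-126 and Igkv1-117 did so in 16 mice, and a segment did so in a median of 12 mice.

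The sequencing depth derived from the files was 50.7 to 54.6 reads per mouse in units of 1000000. The reads on light-chain V segments differed far more, from an estimated 72 in Control mouse 5 to 88870 in LLC mouse 2. Control mouse 5, Control + rFibcd1 mouse 3 (135 reads) and Control + rFibcd1 mouse 4 (712 reads) stood apart from the rest, and shares within them are coarse. In these mice a count of 0 allows a share of up to 4.17%, 2.22% and 0.421% (3 reads of the total), whereas in the LLC mice it allows at most 0.00602%. Such limits and the intervals below cover counting error only.

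The summed level of all 163 listed segments was the first measure. In Control mice it was 955, 4160, 787, 980.0 and 7.66 TPM in mice 1 to 5. In Control + rFibcd1 mice it was 2558, 494, 14.5, 71.0 and 1234 TPM. These tumor-free mice thus covered a wide range with or without rFibcd1, and the lowest mouse of either group held almost no light-chain transcript. In LLC mice the sum was 5354, 9622 and 5836 TPM, above every Control and every Control + rFibcd1 mouse. In LLC + rFibcd1 mice it was 412, 3660, 6841 and 298 TPM, so that mice 1 and 4 were within the tumor-free range, mouse 2 was below the highest Control mouse and mouse 3 was within the range of LLC. Control averaged 1378 ± 1605 TPM (SD, n = 5) and Control + rFibcd1 averaged 874 ± 1060 TPM (SD, n = 5). LLC averaged 6937 ± 2338 TPM (SD, n = 3) and LLC + rFibcd1 averaged 2802 ± 3111 TPM (SD, n = 4). Means of 3 groups rested on 1 mouse each, being 682 TPM without Control mouse 2, 453 TPM without Control + rFibcd1 mouse 1 and 1456 TPM without LLC + rFibcd1 mouse 3. In bulk tissue, fewer B-lineage cells and less immunoglobulin RNA per cell cannot be told apart.

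**Figure D1:**
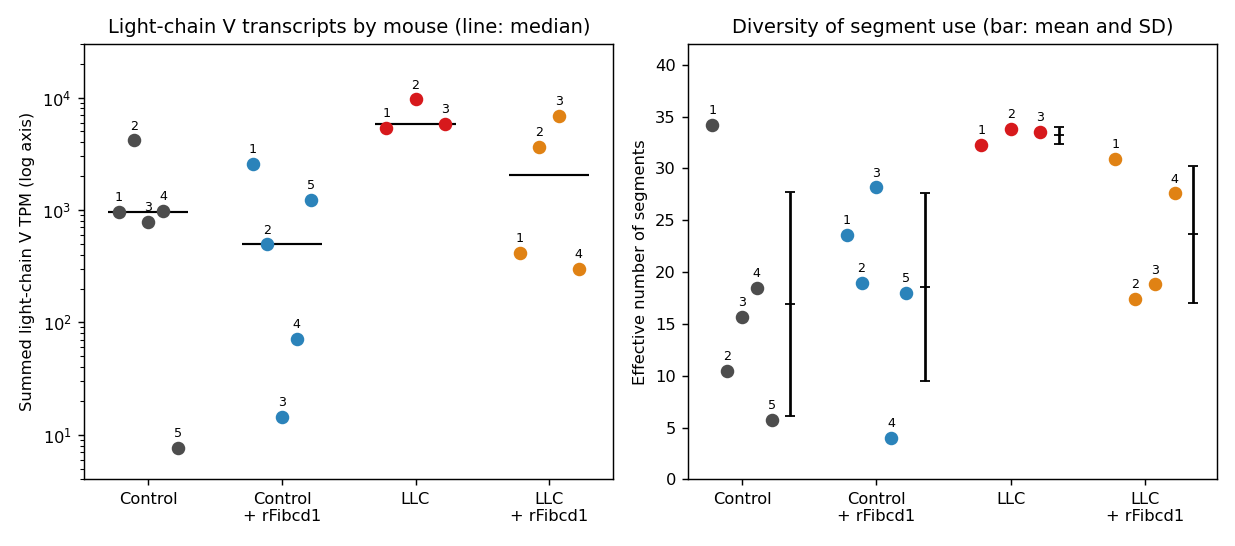
Left, the summed TPM of the 163 listed light-chain V segments in each of the 17 mice on a log axis, with the group median as a line; right, the effective number of segments (exponential of the Shannon entropy of the shares) with the group mean and SD as a bar. Numbers are replicate numbers. The LLC mice lie between 5354 and 9622 TPM with 32.3 to 33.8 effective segments, and the other groups are spread in either measure.

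The constant regions gave a check of these sums from other rows of the table. Igkc, which encodes the constant part of every kappa chain, ran from 4.75 TPM in Control mouse 5 to 7754 TPM in LLC mouse 2. Per length, the summed Igkv level was 0.754 to 1.55 times that of Igkc, so the V segments and the constant exon gave similar levels in each of the 17 mice. Of the 8 light-chain J segments, which are short, 6 are listed at 0 in every mouse. Highest levels of Rag1 and Rag2, the recombinase genes, were 0.0242 and 0.0122 TPM.

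Diversity of segment use was described by the effective number of segments, the number of equally used segments that would give the same Shannon entropy. It was 34.2, 10.46, 15.7, 18.5 and 5.75 in Control mice 1 to 5. Control + rFibcd1 mice had 23.5, 19.0, 28.2, 4.01 and 18.0. The 3 LLC mice had 32.3, 33.8 and 33.5, which lie close together, while Control ran from 5.75 to 34.2 and Control + rFibcd1 from 4.01 to 28.2. LLC + rFibcd1 mice had 30.9, 17.4, 18.8 and 27.6, all below the lowest LLC mouse, although the 2 with the fewest light-chain transcripts (mice 1 and 4) were the 2 with the higher numbers. Control mouse 1 was above all LLC mice at a sum of 955 TPM. The relation of the number to the level was not tested. Control averaged 16.9 ± 10.8 (SD, n = 5) and Control + rFibcd1 averaged 18.5 ± 9.07 (SD, n = 5), against 33.2 ± 0.808 for LLC (SD, n = 3) and 23.7 ± 6.61 for LLC + rFibcd1 (SD, n = 4).

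Since shallow mice can show few segments, the number of segments expected in 72 reads, the total of the shallowest mouse, was also calculated. It was 29.4 to 30.3 in LLC mice, 17.9 to 30.8 in Control mice, 14.1 to 31.9 in Control + rFibcd1 mice and 22.2 to 28.2 in LLC + rFibcd1 mice. At equal depth the LLC mice were thus within the range of either tumor-free group, and above all LLC + rFibcd1 mice. Segments at 1 TPM or more numbered 81 to 87 in LLC mice, 1 to 68 in Control, 4 to 76 in Control + rFibcd1 and 40 to 84 in LLC + rFibcd1.

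The share of light-chain V TPM held by the most abundant segment described the same property from the other side. In the LLC mice it was 13.7% (Igkv3-10), 13.3% (Igkv5-39) and 11.97% (Igkv10-96), a different segment in each. In Control mice 1 to 5 it was 16.6% (Igkv15-103), 43.4% (Igkv4-55), 40.1% (Igkv4-59), 25.5% (Igkv4-55) and 61.5% (Igkv1-117). All 5 exceeded the LLC mice. In Control + rFibcd1 mice it was 23.6% (Igkv4-55), 19.5% (Igkv15-103), 10.99% (Igkv4-57), 76.0% (Igkv3-2) and 29.5% (Igkv4-80). In LLC + rFibcd1 mice it was 9.35% (Igkv8-24), 27.2% (Igkv5-39), 33.1% (Igkv3-2) and 16.9% (Igkv14-126). The lowest share of all was thus in an LLC + rFibcd1 mouse and the highest in a Control + rFibcd1 mouse.

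The precision of these shares depended on the reads of a mouse. By reads, Igkv1-117 held 46 of 72 in Control mouse 5 (63.9%, 95% Wilson interval 52.4 to 74.0%). Igkv4-57 held 14 of 135 in Control + rFibcd1 mouse 3 (10.4%, 6.28 to 16.7%), and Igkv3-2 held 544 of 712 in Control + rFibcd1 mouse 4 (76.4%, 73.1 to 79.4%). The leader of LLC mouse 2, Igkv5-39, held 11132 of 88870 reads (12.5%, 12.3 to 12.7%). A leading share of over 10% in a mouse of few reads can therefore be known only roughly, and the high shares in Control mouse 5 and Control + rFibcd1 mouse 4 remain high at the lower bound.

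**Figure D2:**
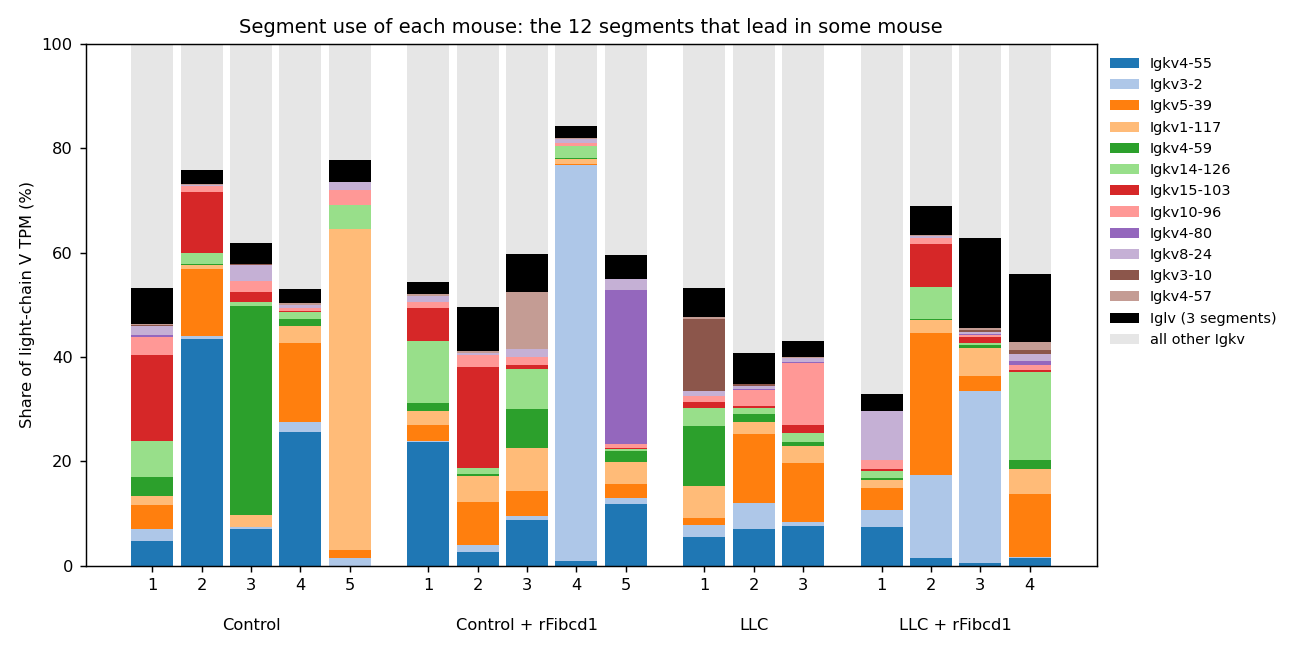
Stacked bars give the share in percent of light-chain V TPM in each of the 17 mice for the 12 segments that lead in some mouse, for the 3 Iglv segments together in black and for all other Igkv in grey. Leading segments differ between mice of every group, and no segment takes more than 13.7% in an LLC mouse.

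The 17 mice had 12 different leading segments. Igkv4-55 led in 3 mice, and Igkv15-103, Igkv3-2 and Igkv5-39 in 2 each. Igkv4-55, Igkv4-57, Igkv4-59 and Igkv4-80 belong to the family of the most members, Igkv4. Of the 81 segments kept, 14 exceeded 10% in at least 1 mouse, 4 did so in at least 3 mice, and 14 never exceeded 1%. Only 17 had a median share over 1%. For most segments a high share was thus seen in few mice.

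Some leaders held little outside the mouse they led. Igkv4-80, at 364 TPM in Control + rFibcd1 mouse 5, held 29.5% there against at most 0.832% in any other mouse, with a median of 0.0428%. Igkv3-10 showed the same in LLC mouse 1, with 735 TPM and 13.7% against at most 0.685% elsewhere. Its close relative Igkv3-5 was at 71.9 TPM in that mouse. Igkv10-96 held 11.97% of LLC mouse 3, at 699 TPM, against at most 3.47% elsewhere. Other leaders were used widely. Igkv4-55 had a median share of 6.23% over the other mice, whichever of its 3 mice is set aside, and Igkv5-39 of 4.31%.

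The 8 segments of highest mean level show how unevenly mice contributed to a group. Igkv4-55 was at 44.5, 1804, 55.4, 250.3 and 0 TPM in Control mice 1 to 5, and at 290, 679 and 438 TPM in LLC mice. The LLC mice were higher than 4 of the 5 Control mice and lower than Control mouse 2. In LLC + rFibcd1 mice Igkv4-55 was at 30.6, 51.3, 28.9 and 4.55 TPM, below all 3 LLC mice, although mouse 3 had a light-chain sum within the LLC range. Igkv3-2 was at 123, 471 and 49.2 TPM in LLC and at 13.4, 586, 2263 and 0.207 TPM in LLC + rFibcd1 mice, so the highest and the lowest of these 7 values were both in the group given rFibcd1. Igkv5-39 was at 78.0, 1278 and 659 TPM in LLC and at 17.1, 997, 197 and 36.03 TPM in LLC + rFibcd1 mice, with overlap. Igkv15-103 was at 158, 487, 14.0, 1.28 and 0 TPM in Control and at 63.2, 35.3 and 87.5 TPM in LLC mice, and its groups overlapped. Igkv3-4, Igkv1-117 and Igkv4-59, the other kappa segments of the 8, had means of 106, 86.0 and 76.1 TPM.

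Lambda use differed between mice more than between groups. The 3 Iglv segments held 2.57 to 6.85% of light-chain V TPM in Control mice, 2.26 to 8.39% in Control + rFibcd1 mice and 3.19 to 5.93% in LLC mice. In LLC + rFibcd1 mice they held 3.17, 5.57, 17.3 and 13.1%, and mice 3 and 4 were above all other mice. Control averaged 4.06% ± 1.74 (SD, n = 5), Control + rFibcd1 4.96% ± 2.78 (SD, n = 5), LLC 4.89% ± 1.49 (SD, n = 3) and LLC + rFibcd1 9.79% ± 6.57 (SD, n = 4). The difference was smaller than the spread in LLC + rFibcd1.

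Iglv1 was the main lambda segment. It was at 222, 410 and 109 TPM in LLC mice and at 8.08, 163, 1032 and 20.3 TPM in LLC + rFibcd1 mice. The level of 1032 TPM in mouse 3 made up 15.1% of its light-chain V transcripts, and Iglc1, a lambda constant region, was at 715 TPM in the same mouse against at most 266 TPM in any other. Mouse 4 had its high lambda share at low levels, with Iglv1 at 6.83% and Iglv2 at 5.97% of the sum. Iglv3 was the least abundant of the 3, at a mean of 9.86 TPM, and its highest levels were 49.9 TPM in LLC mouse 2 and 48.1 TPM in Control mouse 2.

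Segments were also summed by family. Igkv4, with 19 of its 33 listed segments kept, held 2.82 to 57.3% of the sum in a mouse, with group means of 31.3% in Control, 26.2% in Control + rFibcd1, 19.3% in LLC and 14.0% in LLC + rFibcd1. Igkv3, with 7 of 13 kept, held 1.41 to 78.4%, and its means were 4.80, 19.6, 12.9 and 20.7% in the same order. The second of these rested on Control + rFibcd1 mouse 4 (78.4%, in 712 light-chain reads), and without it the mean was 4.93%. Igkv19, which has the single segment Igkv19-93, held 3.22 to 6.20% in LLC mice, 0 to 1.022% in Control, 0 to 2.14% in Control + rFibcd1 and 0.716 to 3.52% in LLC + rFibcd1 mice, the last overlapping LLC. Igkv13, with 2 of its 18 listed segments kept, never held more than 3.01%, and no segment of Igkv18 or Igkv20 was kept.

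By position, the first Mb of the kappa locus from Igkj1 holds 30 of the segments kept, the second 24, the third 22 and the remainder 2. The share of kappa V TPM from the first Mb averaged 29.5% ± 8.29 among Control mice (SD, n = 5) and 38.2% ± 28.1 among Control + rFibcd1 mice (SD, n = 5). It averaged 43.6% ± 2.24 among LLC mice (SD, n = 3) and 55.2% ± 12.7 among LLC + rFibcd1 mice (SD, n = 4). In Control + rFibcd1 mouse 4 it was 88.1%, of which Igkv3-2 gave 77.8% of kappa V TPM. Segments on the strand of the J segments held 38.0% ± 21.2 of kappa V TPM in Control mice (SD, n = 5) and 38.1% ± 8.14 in LLC mice (SD, n = 3). With rFibcd1 they held 51.0% ± 23.9 in tumor-free mice (SD, n = 5) and 47.7% ± 14.9 in LLC mice (SD, n = 4). The range over all mice was 16.4 to 88.1%. Segments near and far from J, in either orientation, were thus used in all groups.

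**Figure D3:**
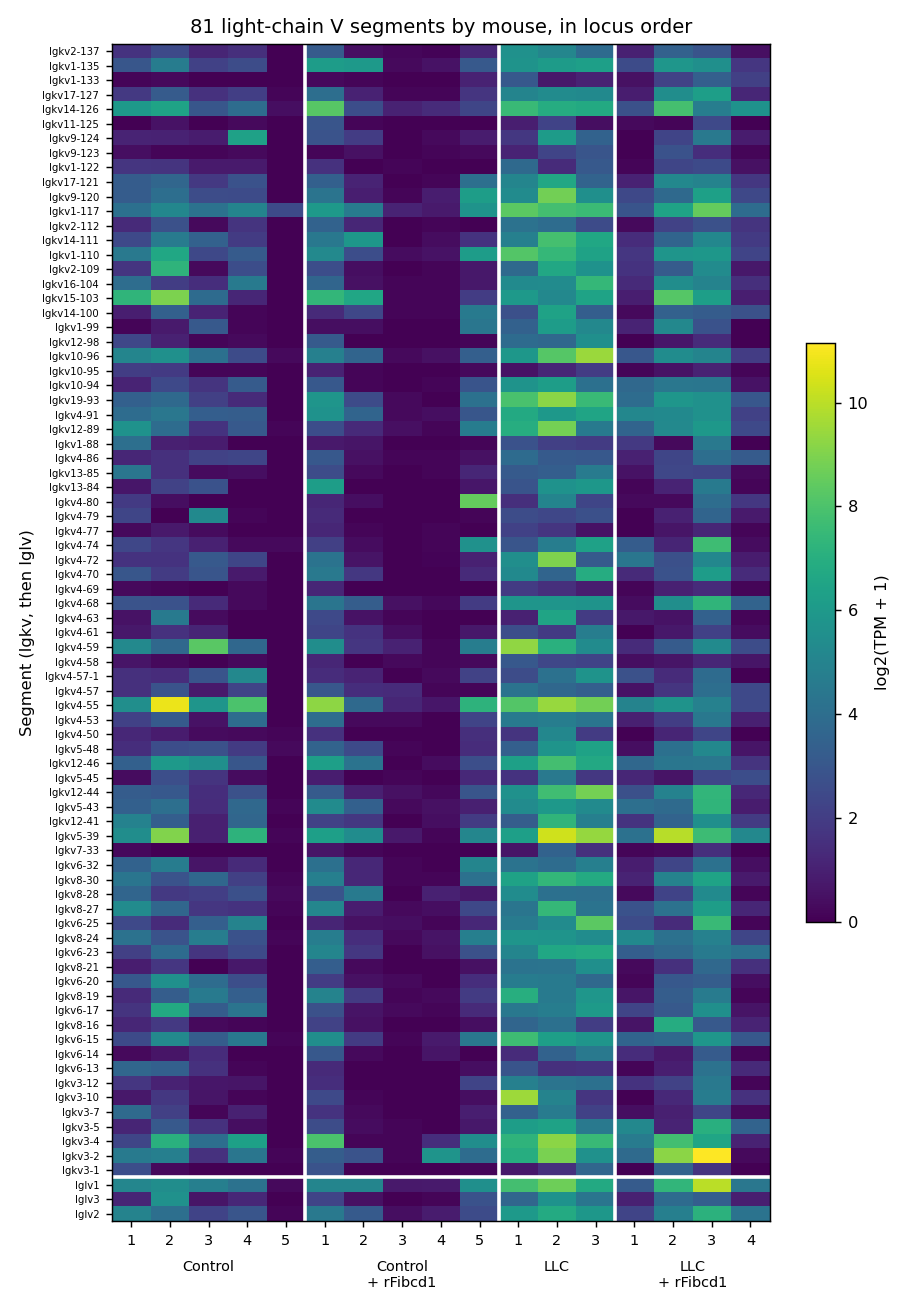
Levels of the 81 segments kept, as log2(TPM + 1) in color, in each of the 17 mice (columns, by group), with Igkv segments in chromosome order and the 3 Iglv segments at the bottom. The 3 LLC mice and LLC + rFibcd1 mouse 3 show raised levels over most rows, and Control mouse 5 and Control + rFibcd1 mice 3 and 4 are dark in nearly all.

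Likeness of segment use between mice was measured by the Morisita-Horn index, which is 0 for mice with no segment in common and rises with shared use of abundant segments. Over the 136 pairs of mice it ran from 0.0152 to 0.815 with a median of 0.315. Pairs within a group had a median of 0.275 (29 pairs) and pairs between groups of 0.322 (107 pairs), so by these pooled medians mice of a group were not more alike than mice of different groups. By group the medians were 0.195 in Control, 0.205 in Control + rFibcd1, 0.451 in LLC and 0.358 in LLC + rFibcd1. Those of the groups with tumors were thus above the median between groups, and those of the tumor-free groups below it. The index is driven by abundant segments, and mice enter several pairs. Within LLC the 3 pairs gave 0.362, 0.451 and 0.729, and within LLC + rFibcd1 the 6 pairs ran from 0.217 to 0.559. The most alike pair was Control mice 2 and 4 (0.815), and each of them was nearly as like Control + rFibcd1 mouse 1 (0.776 and 0.784). Igkv4-55 led in all 3 of these mice. Control + rFibcd1 mouse 4 and LLC + rFibcd1 mouse 3, led by Igkv3-2, had an index of 0.708. Control mouse 5 was unlike all others, with a highest index of 0.267.

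**Figure D4:**
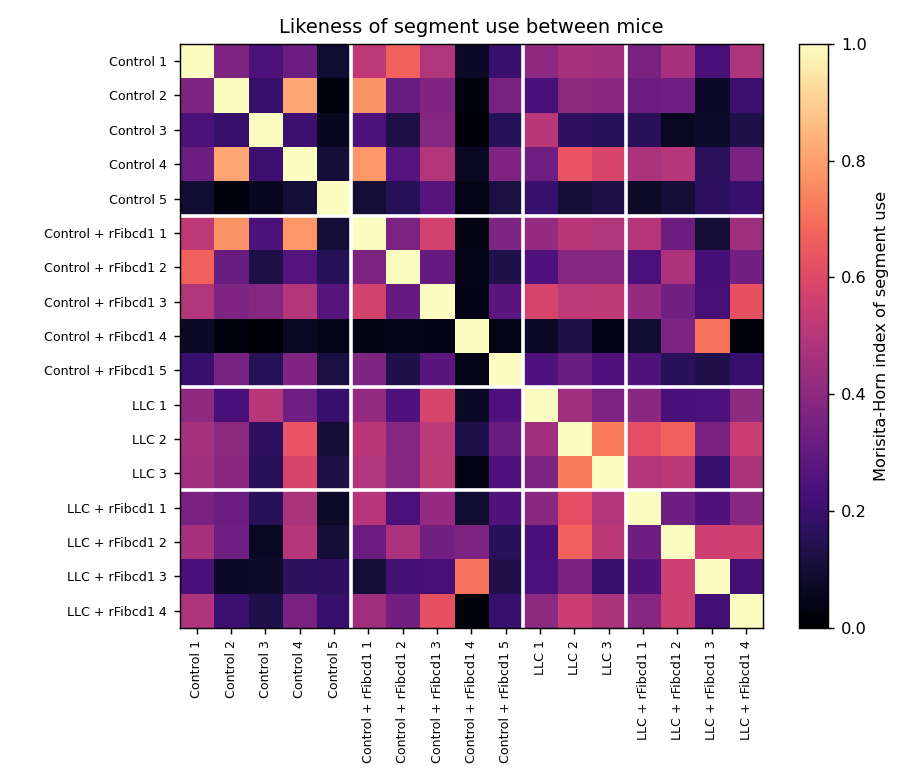
Morisita-Horn index of segment use, over the shares of the 163 listed segments, for each pair of the 17 mice, with white lines between groups. The index is 1 on the diagonal by definition. The highest values, 0.815, 0.784 and 0.776, join the 3 mice led by Igkv4-55, whereas LLC mice 2 and 3, at 0.729, have different leading segments. Control mouse 5 and Control + rFibcd1 mouse 4 are dark in most pairs.

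The levels of single segments were then compared between groups by limma over all 13305 genes, on log2(TPM + 1). A call is a Benjamini-Hochberg adjusted p under 0.05, and changes are given with their standard error. In LLC against Control 39 of the 81 segments were called, all of them higher in LLC, against 29.7% of all genes tested called higher. All 81 changes were positive, from 0.25 (Igkv6-13) to 6.10 (Igkv19-93), with a median of 3.01 against 0.16 over all genes. In 47 of the 81 segments each LLC mouse was above each Control mouse, which held for 33.6% of all genes tested. As the selection could favor segments high in LLC, these counts over the segments kept are a description. Of the 5 segments kept only through the LLC mice 4 are among those called, Igkv11-125 being the exception.

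Igkv19-93 was at 243, 597 and 188 TPM in LLC mice and at 9.75, 13.0, 3.34, 1.54 and 0 TPM in Control mice. The groups did not overlap, and the change was 6.10 ± 1.21 with a limma adjusted p of 0.00942. Igkv12-44 was at 48.2, 213 and 444 TPM in LLC and at most 8.33 TPM in Control, a change of 5.28 ± 1.22 (limma adjusted p = 0.0112). Both segments were lower in each Control + rFibcd1 mouse than in any LLC mouse, with highest levels of 54.7 and 8.25 TPM there. Igkv3-5 was at 71.9, 84.9 and 21.4 TPM in LLC mice and at 1.25, 7.68, 1.97, 0.314 and 0 TPM in Control mice, a change of 4.45 ± 1.06 (limma adjusted p = 0.0119). Igkv4-68, whose 3′ end is that of Igkv4-59, was at 55.5, 55.7 and 51.6 TPM in LLC and at most 6.16 TPM in Control mice, with a change of 4.34 ± 1.28 (limma adjusted p = 0.020).

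Igkv3-10 was called as well, with a change of 4.74 ± 1.32 and a limma adjusted p of 0.0169, but its LLC values were 735, 30.6 and 2.26 TPM. LLC mouse 3 was below the highest Control mouse, at 2.50 TPM, and without LLC mouse 1 the adjusted p was 0.0902. Igkv19-93, Igkv12-44, Igkv3-5 and Igkv4-68 lost their call without LLC mouse 3, with limma adjusted p from 0.0592 (Igkv19-93) to 0.0810 (Igkv4-68), and Igkv4-68 lost it without LLC mouse 1 as well (0.0594). Of the lambda segments Iglv2 was called, at 63.5, 111 and 57.9 TPM in LLC and 30.2, 15.7, 3.77, 6.78 and 0.113 TPM in Control mice, a change of 3.35 ± 1.15 (limma adjusted p = 0.0360). Iglv1 (3.77 ± 1.60, limma adjusted p = 0.0754) and Iglv3 (2.83 ± 1.13, limma adjusted p = 0.0619) were not.

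By family, Igkv4 had 10 of 19 segments called, Igkv1 4 of 7, Igkv3, Igkv12 and Igkv6 3 each of 7, 5 and 8, and Igkv8 2 of 7, with 6 of these 7 not overlapping between the groups. Igkv5 had 1 of 4 called. No family was tested against the shares over all genes (29.7% called higher, 33.6% not overlapping), and Igkv8, Igkv5 and Igkv6 are near the share called higher. The 39 called segments had mean levels of 0.602 to 86.0 TPM, so none of the 6 most abundant segments was called. Among the 8 of highest mean level only Igkv1-117 was, at 323, 227 and 192 TPM in LLC against 4.71 to 34.5 TPM in Control (3.72 ± 1.33, limma adjusted p = 0.0412). Igkv4-55, the most abundant, changed by 2.77 ± 2.12 (limma adjusted p = 0.310), with its highest level in Control mouse 2. Median mean levels were 13.7 TPM in the 39 called segments and 17.2 TPM in the 42 others.

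The number of calls depended on the mice included, over all genes as well as in the segments. Without LLC mouse 3 only Igkv3-10 and Igkv4-58 were called, and over all genes the count called higher fell from 3958 to 15. Without LLC mouse 1 17 segments and 1773 genes were called higher, and without Control mouse 5 19 segments and 2684 genes. Without LLC mouse 2 21 segments were called, while the count over all genes was 4240. Igkv4-58 is 1 of the segments kept only through the LLC mice. With the level of Igkc as a covariate 2 segments were called, Igkv19-93 and again Igkv4-58, among 103 genes called higher. Dunn's test called 0 of the 13305 genes, segments included, in this and each other comparison of groups. By that test 44 segments were at an unadjusted p under 0.05 here, against 37.5% of genes.

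Transcripts of lymphocytes moved in the same comparison. Of 10 B-cell genes 10 were higher in LLC than in Control by limma, among them Cd79a, a signaling partner of surface immunoglobulin, and Ms4a1, which encodes CD20. Their summed level was 2.82 to 114 TPM in Control and 265 to 338 TPM in LLC mice. Of 8 plasma-cell genes 5 were higher, including Xbp1 and Irf4, regulators of antibody secretion. Jchain, the joining chain of secreted IgM and IgA, was not called (3.24 ± 1.57, limma adjusted p = 0.114), and the summed level was 46.9 to 337 TPM in Control and 393 to 569 TPM in LLC mice. All 6 T-cell genes were higher (summed 0.993 to 12.4 TPM in Control, 20.9 to 35.7 TPM in LLC), and so were 3 of 4 tested genes of lymphoid stroma, Ccl19, Cxcl13 and Glycam1. Lymphoid stroma summed to 233 to 297 TPM in Control and 270 to 431 TPM in LLC mice, and Ccl21a was not called. These counts depended on the mice included, as did those over all genes, by fits chosen after seeing the data. Without LLC mouse 3 limma called 0 of the 10 B-cell, 8 plasma-cell, 6 T-cell and 4 stroma genes, with 10, 5, 6 and 3 at an unadjusted p under 0.05. Without LLC mouse 1 it called 0, 2, 3 and 0 in the same order, without LLC mouse 2 5, 2, 6 and 1, and without Control mouse 5 1, 3, 3 and 2. Without Control mouse 3 it called 5, 3, 4 and 1, and without Control mouse 4 5, 3, 5 and 1. The part of these cells in the change of light-chain V segments was not tested.

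The genes around the light chain were mixed. None of the 4 tested constant regions was called in LLC against Control, with 3 at an unadjusted p under 0.05. Igkc changed by 3.84 ± 1.88 (limma adjusted p = 0.117) and Iglc1, Iglc2 and Iglc3 by 3.69 ± 1.52, 3.27 ± 1.30 and 3.11 ± 1.22 (limma adjusted p = 0.0685, 0.0610 and 0.0582). Of 3 octamer factors, which act on immunoglobulin promoters, Pou2af1 (2.76 ± 1.00) and Pou2f2 (1.61 ± 0.46) were higher in LLC with limma adjusted p of 0.0444 and 0.0185, and Pou2f1, the ubiquitous member, was not called (0.12 ± 0.13). Of 7 genes of light-chain recombination and the pre-B cell 1 passed the filter, Vpreb3, and it was higher in LLC (1.16 ± 0.30, limma adjusted p = 0.0143). Of 5 germinal center and hypermutation genes 2 were tested and 0 called, with 1 at an unadjusted p under 0.05. Of 8 muscle genes 4 were lower in LLC. Without LLC mouse 3 none of these octamer, pre-B and muscle genes was called by limma, with 2, 1 and 5 at an unadjusted p under 0.05, and without LLC mouse 1 the octamer count was 0 as well. Mitochondrially encoded transcripts took 41.3 to 44.3% of TPM in LLC and 45.9 to 48.4% in Control mice.

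**Figure D5:**
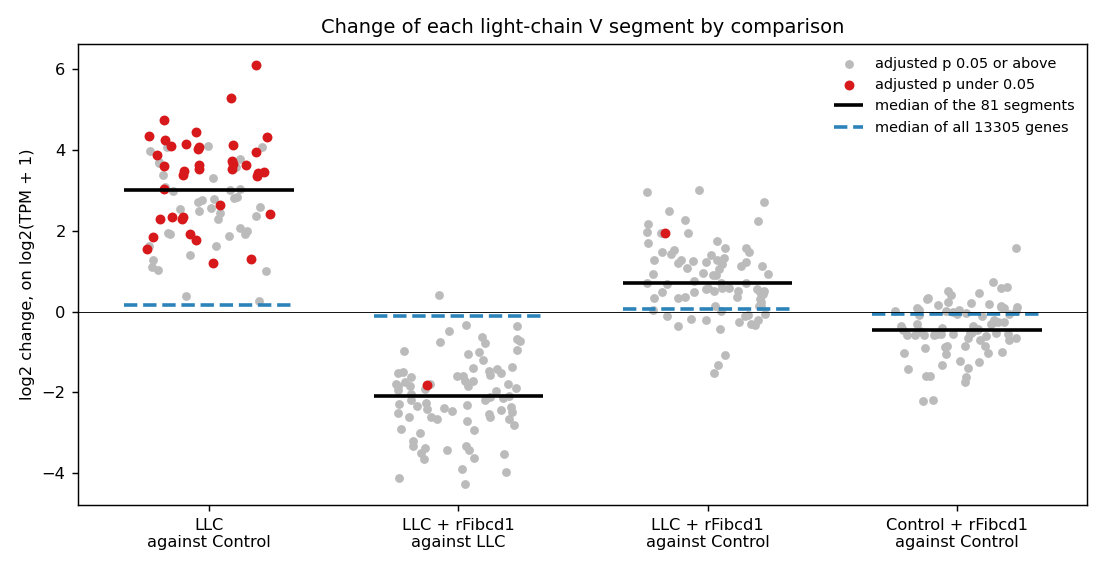
Each point is the change of a segment on log2(TPM + 1) in 1 of 4 comparisons, for the 81 segments kept, in red where the limma adjusted p is under 0.05. Solid lines are medians over the segments and dashed lines medians over all 13305 genes. In LLC against Control all points are above 0 with a median of 3.01, and in LLC + rFibcd1 against LLC all but 1 are below 0 with a median of -2.08. Comparisons that share a group are not independent.

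In LLC + rFibcd1 against LLC 1 of the 81 segments was called, lower, against 0.0526% of all genes tested called lower. It was Igkv4-58, at 7.28, 4.12 and 3.69 TPM in LLC mice and 0.327, 0.557, 1.30 and 0.547 TPM in LLC + rFibcd1 mice. The groups did not overlap, and the change was -1.83 ± 0.28 (limma adjusted p = 0.0334). As this segment was kept only through the LLC mice, the call is a description and supports nothing. With no filter on level, which tests every listed segment above 0 in some mouse, its limma adjusted p was 0.0222. At an unadjusted p under 0.05, 29 segments were lower, against 17.3% of genes. This count was 12 without LLC mouse 2 (22.8% of genes), 12 without LLC + rFibcd1 mouse 1 (7.4%), 13 without LLC + rFibcd1 mouse 4 (6.93%) and 47 without LLC + rFibcd1 mouse 3 (21.3%). It was 11 with a pseudocount of 0.1 (14.8%) and 7 by Dunn's test (4%). With a replicate block it was 14 (7.13%) and with Igkc as a covariate 17 (8.98%). In the other alternatives it was 21 to 27 of these segments (7.82 to 17.3%). The LLC + rFibcd1 mice were all below the LLC mice in 15 segments, against 9.3% of genes. Changes ran from -4.27 (Igkv4-55) to 0.41 (Igkv1-133), with a median of -2.08 against -0.11 over all genes.

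Igkv12-98 was at 14.1, 12.4 and 46.1 TPM in LLC and at 0, 0.575, 1.57 and 0 TPM in LLC + rFibcd1 mice. Its change of -3.90 ± 0.76 did not pass the threshold (limma adjusted p = 0.0682), although the groups did not overlap. Igkv2-137, the segment kept that is farthest from J, was at 49.5, 33.4 and 13.7 TPM in LLC and 1.012, 9.88, 6.35 and 0.391 TPM in LLC + rFibcd1 mice, and did not pass either (-2.93 ± 0.83, limma adjusted p = 0.152). Igkv10-96, the leader in LLC mouse 3, was at 57.9, 290 and 699 TPM in LLC and 7.06, 42.2, 31.8 and 2.95 TPM in LLC + rFibcd1 mice (-3.97 ± 1.39, limma adjusted p = 0.190). The change in Igkv1-133, the only positive one, was 0.41 ± 0.57. The call of Igkv4-58 was lost without LLC mouse 3 (limma adjusted p = 0.123), and the count was 0 without LLC mouse 1, LLC + rFibcd1 mouse 1 or LLC + rFibcd1 mouse 4 as well, 2 without Control + rFibcd1 mouse 1 and 3 without LLC + rFibcd1 mouse 3. Over all genes, where 15 were called in either direction with all mice, 0 or 1 were called in the fits with no segment called, and 29 and 88 in the last 2 fits. The B-cell genes summed to 21.1 to 332 TPM in LLC + rFibcd1 mice, with 0 of 10 called and 4 at an unadjusted p under 0.05, and 0 of 8 plasma-cell and 0 of 6 T-cell genes were called by limma, with 2 and 5 at an unadjusted p under 0.05. Their part was not tested.

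LLC + rFibcd1 mice were also set against Control, which shares mice with the comparisons above. Called was 1 of 81 segments, against 3.08% of all genes tested. Igkv1-133 was at 0.417, 3.52, 9.23 and 3.35 TPM in LLC + rFibcd1 and 0.106, 0.212, 0, 0 and 0 TPM in Control mice, without overlap, and was higher by 1.95 ± 0.50 (limma adjusted p = 0.0465). In LLC mice this segment was at 7.50, 0.640 and 1.10 TPM. The call held in 4 of the 17 fits that leave out a mouse, and the highest limma adjusted p was 0.150, without LLC + rFibcd1 mouse 3. At an unadjusted p under 0.05 there were 6 segments, against 19.9% of genes. With a mouse left out there were 2 without LLC + rFibcd1 mouse 2 (15.6% of genes) or 3 (14.2%) or Control mouse 3 (16.1%) or 4 (15.1%). There were 3 without Control mouse 5 (16.6%), 12 without LLC + rFibcd1 mouse 4 (20.7%) and 13 without LLC + rFibcd1 mouse 1 (22%). Igkv3-5 (2.97 ± 0.97, limma adjusted p = 0.107) and Igkv4-68 (2.72 ± 1.17, limma adjusted p = 0.220) did not pass. The median change of the 81 segments was 0.71, against 0.06 over all genes, and 66 were positive. The median was 0.24 with 47 positive without LLC + rFibcd1 mouse 3, 0.38 with 55 positive without Control mouse 5 and 0.46 with 62 positive without LLC + rFibcd1 mouse 2. It was 1.11 without LLC + rFibcd1 mouse 1 and 1.14 without LLC + rFibcd1 mouse 4. With a pseudocount of 0.1 it was 1.41 with 71 positive, and with Igkc as a covariate 0.26 with 50 positive.

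Without tumors, rFibcd1 gave no call. In Control + rFibcd1 against Control 0 of 81 segments were called, against 0% of all genes tested, and 1 was at an unadjusted p under 0.05, against 4.39% of genes. With a mouse left out there were 0 to 3, against 3.01 to 8.45% of genes. Dunn's test called 0, with 0 at an unadjusted p under 0.05, against 2.42% of genes. The lowest p was that of Igkv6-20, at 7.32, 47.1, 14.5, 5.34 and 0 TPM in Control and 2.98, 0.419, 0.214, 0 and 1.72 TPM in Control + rFibcd1 mice (-2.21 ± 0.87, limma adjusted p = 0.927). Control mouse 5 overlapped the treated mice. This segment has the fewest unique runs, and its values may hold reads of Igkv6-29. Igkv6-17 (-2.18 ± 1.10) and Igkv6-13 (-1.41 ± 0.80) came next, with the same limma adjusted p. The median standard error was 1.018 on the log2 scale, so a log2 change of 1 would have been within the error of most segments.

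The interaction asks whether the change with rFibcd1 differed between mice with and without tumors. Of 81 segments 0 were called, against 0% of all genes tested, and 8 were at an unadjusted p under 0.05, against 8.58% of genes. All 8 were negative, against 2.6% of genes negative at that p. The median change was -1.59, against -0.06 over all genes, and 4 of the 81 were positive. Selection could favor segments high in LLC, so these values are a description. The count at an unadjusted p was 22 without LLC + rFibcd1 mouse 3, 4 without LLC mouse 2 or LLC + rFibcd1 mouse 4 and 5 without LLC + rFibcd1 mouse 1, all negative. The shares of genes negative in these fits were 6.46, 5.69, 1.66 and 1.53%. In either direction they were 12.1, 11.4, 7.25 and 7.27%. Igkv4-58 came closest, with -1.96 ± 0.36 and a limma adjusted p of 0.0758, followed by Igkv12-98 (-3.80 ± 0.99, limma adjusted p = 0.179) and Igkv4-61 (-2.61 ± 0.91, limma adjusted p = 0.336). Igkv4-58 was at 0.556, 0.222, 0, 0.224 and 0 TPM in Control and at 1.27, 0, 0.224, 0.105 and 0.226 TPM in Control + rFibcd1 mice, so it was low without a tumor in either group. It was kept only through the LLC mice, and its interaction is a description. A difference of the rFibcd1 change between tumor-bearing and tumor-free mice was thus not detected for any segment at this group size.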

How the data were processed

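Total RNA of 17 diaphragms was sequenced as 100-bp paired reads; the labels and the study differ on the library kit and the instrument, and whether counting used strand is not given in the sources used here. The authors trimmed and filtered the reads, aligned them to mouse GRCm38 (mm10 in the submitters' processing notes) in CLC Genomics Workbench and deposited TPM per gene symbol, scaled to 1000000 per mouse, mitochondrial transcripts included. Counts were not used here. Groups and replicate numbers came from the sample titles, and no file was left out.

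The members and gene lists were chosen with earlier results of these data known. Coordinates, lengths and transcripts were taken from GENCODE vM21. Depth was derived from low values, of which 80.8 to 83.5% were within 0.02 of a whole read, as were all low light-chain V values; it set estimated reads and 95% Wilson intervals, and entered no test. Sums, shares, the effective number of segments and the Morisita-Horn index use all 163 rows and have no test.

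Genes that reached 1 TPM in 3 or more mice (13305) were log2-transformed after adding a pseudocount of 1 TPM, so changes of low segments are understated. limma 3.58.1 in R 4.3.3 fitted the 4 groups in a single model with an expression trend (13 residual degrees of freedom), with two-sided tests and Benjamini-Hochberg adjustment over all genes at 0.05. limma was used in place of the Kruskal-Wallis and Dunn tests of the study because their normal approximation needs more than 3 to 5 mice; Dunn's test is an alternative. Each limma p-value sets a difference between groups against the spread between these mice, moderated across genes. No batch is given in the labels. Tested on simulated data for LLC against Control with 13305 genes, of which 50 were changed at each size, the fit recovered 56% of log2 changes of 0.5, 94% of 1 and 100% of 2 and 4, with 9 false calls of 13105. This recovery is for genes drawn from the whole table, whose median standard error was 0.108 on the log2 scale, against 1.18 for the segments, and does not apply to the segments.

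Named segments are the 8 of highest mean TPM, the leader of each mouse, all Iglv, the 2 rows on each side of the threshold and, per comparison, the 5 largest changes among those called or, failing that, the 3 of lowest p; other segments and markers come from fixed lists or are named as nearest relatives. Alternatives were another pseudocount, no filter, median-ratio scaling, leaving out mitochondrial genes, the groups compared only, no trend, Igkc as a covariate, a replicate block and leaving out each mouse; for the values without a test they were the kept segments only, estimated reads as weights and merging of segments at 97% identity.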

Additional observations from a re-analysis of the deposited data

Results flagged for a closer look

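Each of 38 measures (32 named segments and 6 summaries by mouse) was examined in the groups of 4 and 5 mice for a mouse far from the rest of its group by Dixon's ratio. Of 114 groups 35 held such a mouse, where chance gives about 1 in 20 if values are normally distributed; TPM are skewed, and the segments of a mouse are not independent. In all 35 the distant mouse was the highest of its group.

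Control mouse 2 had the highest light-chain V sum of the tumor-free mice, at 4160 TPM, with Igkv4-55 at 1804, Igkv5-39 at 530.5, Igkv6-17 at 109.5, Iglv3 at 48.1, Igkv3-5 at 7.68, Igkv3-10 at 2.50 and Igkv14-130 at 0.112 TPM. Control + rFibcd1 mouse 1 stood out most often, with Igkv4-55 at 604, Igkv14-126 at 303, Igkv3-4 at 250.1, Igkv2-137 at 8.26, Igkv12-98 at 7.87, Igkv4-57 at 7.05, Igkv6-17 at 5.82, Igkv3-5 at 4.98, Igkv3-10 at 4.53, Igkv6-13 at 1.498, Igkv4-69 at 1.31, Igkv4-77 at 1.29 and Igkv4-58 at 1.27 TPM. In Control + rFibcd1 mouse 4 the leading share of 76.0% and the level of Igkv3-2 that gave it, 53.9 TPM, were far above the group. In Control + rFibcd1 mouse 5 these were Igkv4-80 at 364 TPM and Igkv1-133 at 1.08 TPM.

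LLC + rFibcd1 mouse 3 stood out in Iglv1 at 1032, Iglv2 at 143.5, Igkv6-17 at 46.1, Igkv3-10 at 24.98, Igkv6-13 at 17.3 and Igkv4-80 at 14.6 TPM. Control mouse 1 did so in Igkv4-90 at 9.27, Igkv12-98 at 4.13 and Igkv4-80 at 2.74 TPM, and Control mouse 3 in Igkv4-59 at 316 TPM.

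For Igkv12-98 and Igkv4-80 every LLC mouse was above the Control mean and every LLC + rFibcd1 mouse below the Control + rFibcd1 mean. The differences of the mean TPM were 23.1 and -1.06 for Igkv12-98, and 12 and -68.7 for Igkv4-80, and 1 mouse sets each of the second differences. Without Control + rFibcd1 mouse 1 that of Igkv12-98 was 0.506, and without Control + rFibcd1 mouse 5 that of Igkv4-80 was 3.97, so both changed sign. The interaction was not past the threshold for either (limma adjusted p = 0.179 and 0.681).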

How the results depend on the processing

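For LLC against Control, where 39 segments were called, the count was 21 with a pseudocount of 0.1, 2 with Igkc as a covariate and 0 by Dunn's test, and 2 (without LLC mouse 3) to 46 (without Control mouse 2) when a mouse was left out. It was 31 with median-ratio scaling, 29 without mitochondrial genes, 55 with only these groups, 39 without the trend and, with no filter, 36 of 122 listed segments tested. Of the 55 calls 39 were those of the main fit. All 81 changes stayed positive under the scalings. With Igkc as a covariate 75 were positive and the median change was 1.25, against 3.01 in the main fit. With a replicate block 79 were positive and the median was 2.37. Leaving out Control mouse 4, Control mouse 5 or LLC mouse 1 gave 80 positive. Median-ratio scaling moved the median change over all genes from 0.16 to -0.01, and its calls over all genes were 1914 higher and 2036 lower, against 3958 and 801. Over all genes 4759 were called in either direction, 4420 with a pseudocount of 0.1, 175 with Igkc as a covariate, 0 by Dunn's test, 5231 with only these groups and 24 (without LLC mouse 3) to 5254 (without Control + rFibcd1 mouse 1) with a mouse left out. For LLC + rFibcd1 against LLC, with 15 genes called in all, the count of 1 became 0 with a pseudocount of 0.1, without mitochondrial genes, by Dunn's test and with only these groups or Igkc as a covariate, where 0 to 6 genes were called in all, and was 0 to 3 with a mouse left out. For LLC + rFibcd1 against Control it became 0 with no filter, median-ratio scaling, Dunn's test, only these groups and no trend, and 0 to 1 with a mouse left out, where 167 to 597 genes were called in all against 410 with all mice; with Igkc as a covariate 1 segment was called, lower. The counts of 0 in the other comparisons stayed 0. The labels do not say whether replicate numbers pair mice. Of 22 same-numbered pairs in different groups 4 had deviations correlated over 0.1, with a range of -0.459 to 0.485 and a median of -0.061. Such a check cannot decide whether mice of a number belong together. With a replicate block the count was 1 in LLC against Control (Igkv4-58, kept only through the LLC mice) and 0 in the other comparisons, with 5 genes called in all in LLC against Control. The block, added for the marker genes after seeing the data, left 0 of the 10 B-cell, 8 plasma-cell, 6 T-cell, 4 stroma and 8 muscle genes called, with 7, 5, 6, 3 and 4 at an unadjusted p under 0.05. It left 0 of the 3 octamer genes and 0 of the 1 tested pre-B gene called, with 1 and 1 at an unadjusted p under 0.05. The B-cell count of 10 was 3 with a pseudocount of 0.1, 6 with no filter or without mitochondrial genes, and 0 with Igkc as a covariate or by Dunn's test. With Igkc as a covariate 0 plasma-cell, T-cell, stroma, octamer and pre-B genes were called, and 1 muscle gene was called lower. Counts at an unadjusted p, median changes and group means with a mouse left out were added after seeing the data. The causes of these shifts were not tested.

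The mean effective number in LLC was 30.6 with segments of 97% identity merged, and 29.8 segments were expected in 72 reads. The mean light-chain V sum in LLC was 12210 TPM without mitochondrial genes, which took 41.3 to 50.4% of TPM over the 17 mice. Rescaling without them raises the sum in every group. Other alternatives moved the means of the effective number and of the sum, and those of the lambda share, by less than the SD between mice. Depth limits shares in the 3 mice with under 1000 light-chain reads.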
